A study of Homo sapiens with 48 samples.

Results

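The genes described here were 10 regulators of G protein signalling (RGS): RGS2, RGS3, RGS4, RGS5, RGS10, RGS12, RGS14, RGS16, RGS19 and RGS20. They were chosen by name, as members of the RGS family that act on heterotrimeric G proteins, with earlier results of these data known. They were 10 of 60610 genes listed in the deposited table. All 10 were among the 19626 genes with enough counts to be tested, as were 5 of 11 other RGS genes. The study asked how angiotensin II (AII) and epidermal growth factor (EGF), given alone or together, alter transcription in HEK293 cells, a human embryonic kidney line, that carry the angiotensin receptor AT1R. The cells were 1 clone, made by transfecting an AT1R plasmid with a puromycin resistance plasmid, selecting in puromycin and losartan (an AT1R blocker) and diluting to single cells. All groups, controls included, carried AT1R and were moved to medium without serum before the stimuli. Control cells, cells with 1 nM AII, cells with 10 µg/L EGF and cells with AII+EGF were each collected after 6 h and 24 h, with 6 libraries per group in the labels.

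RGS proteins speed up GTP hydrolysis on G alpha subunits and so shorten the signal of a receptor that couples to them. RGS2, RGS3, RGS4, RGS5 and RGS16 are members of the R4 family, RGS10, RGS12 and RGS14 form the R12 family, and RGS19 and RGS20 belong to the RZ family. AT1R signals through Gq, which activates phospholipase C beta, and also through other G proteins. RGS2 is known for its preference for Gq alpha, while most R4 members act on both Gq and Gi alpha and the R12 and RZ members act mainly on the Gi family, including Gz.

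Of the 48 libraries, 38 were used. In 4 of 1128 pairs of libraries the counts differed by less than sampling noise (chi-square per degree of freedom 0.397 to 0.505, against 2.02 for the next pair), and in 3 of the 4 the members carried different group labels: control 6 h with EGF 24 h, control 6 h with AII 24 h, and EGF 6 h with AII+EGF 6 h. These 8 libraries were left out. So were AII 6 h replicate 6 and AII+EGF 6 h replicate 6, which went against their labels (replicate numbers here only follow the order of titles within a group). On a scale from 0 (mean of the other AII libraries) to 1 (mean of the other AII+EGF libraries) over 1492 genes that separate these groups, they lay at 0.854 and -0.0062. Because these 2 were recognised from the expression values themselves, leaving them out widens the gap between AII and AII+EGF at 6 h, and the results that rest on it are given with and without them. The libraries used numbered 4, 5, 3 and 4 at 6 h and 6, 5, 5 and 6 at 24 h for control, AII, EGF and AII+EGF, with 17.8 to 29.96 M counts each. AGTR1, the AT1R gene, lay between 3962 and 15222 CPM (counts divided by the scaled library total in M). The HEK293 markers KRT18, VIM and CDH2 were at or above 28.7 CPM in every library, PAX2 lay between 0.273 and 3.90 CPM, UMOD was at 0 and PTPRC was at or below 0.0703 CPM, while COL1A1 (11.1 to 44.7 CPM) and COL3A1 (7.57 to 28.7 CPM) were present.

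Upstream sequences are shown for RGS2, the member known for its preference for Gq, and for RGS16, RGS10 and RGS14. These were called below in some comparison and have a RefSeq start at the end of the gene. RGS3 also meets both conditions and is not shown. Each line gives the 250 bases before that start on GRCh38.p14 from RefSeq, 5′ to 3′ on the gene's strand, with matches to the searched motifs in capitals.
RGS2, chr1:192808789-192809038, plus strand: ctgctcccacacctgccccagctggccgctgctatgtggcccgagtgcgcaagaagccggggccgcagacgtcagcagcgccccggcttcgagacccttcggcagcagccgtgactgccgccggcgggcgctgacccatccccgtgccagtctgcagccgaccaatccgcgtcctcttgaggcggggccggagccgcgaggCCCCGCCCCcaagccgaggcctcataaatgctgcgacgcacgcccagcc
RGS16, chr1:182604390-182604639, minus strand: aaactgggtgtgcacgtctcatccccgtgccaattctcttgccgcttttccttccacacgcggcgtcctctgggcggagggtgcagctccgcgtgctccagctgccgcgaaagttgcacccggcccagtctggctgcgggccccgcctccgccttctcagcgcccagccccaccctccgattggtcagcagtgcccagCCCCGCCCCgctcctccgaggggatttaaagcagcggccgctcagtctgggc
RGS10, chr10:119542720-119542969, minus strand: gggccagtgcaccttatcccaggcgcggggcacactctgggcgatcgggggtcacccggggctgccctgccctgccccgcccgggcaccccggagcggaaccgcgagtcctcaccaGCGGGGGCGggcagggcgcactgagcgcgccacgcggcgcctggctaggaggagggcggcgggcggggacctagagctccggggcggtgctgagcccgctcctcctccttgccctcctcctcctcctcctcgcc
RGS14, chr5:177357674-177357923, plus strand: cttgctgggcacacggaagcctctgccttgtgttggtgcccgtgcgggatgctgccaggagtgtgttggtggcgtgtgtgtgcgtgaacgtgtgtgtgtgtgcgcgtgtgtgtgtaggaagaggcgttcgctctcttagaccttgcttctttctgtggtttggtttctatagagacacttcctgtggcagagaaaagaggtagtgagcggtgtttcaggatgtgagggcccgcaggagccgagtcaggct

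The capitals mark GCGNGGGCG (EGR) in RGS10 and GGGGCGGGG (SP1), read on the opposite strand, in RGS2 and RGS16. The search covered both strands of windows from 250 bases before to 50 bases after each start, and the EGR and SP1 motifs can overlap. RefSeq windows were found for 9 of the 10 genes, 23 in all. The gene without a window was RGS20, so the motif counts do not cover it. The EGR motif was present in 5 of the 23 windows, against 9.43% of all windows, and these belonged to 3 of the 9 genes (RGS10, RGS12 and RGS19), against 11.2% of all genes. The SP1 motif was present in 6 of the 23 windows, against 15.7%, and in 4 of the 9 genes (RGS2, RGS12, RGS16 and RGS19), against 18.5%. Genes with several windows have more chances of a match. TGANTCA (AP-1), TGACGTCA (CRE) and the CArG box, the motif bound by serum response factor, were in none of the 23 windows, and in 7.71%, 1.85% and 1.29% of all windows.

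In unstimulated cells the 10 genes were expressed at very different levels. The length used was that of all annotated exons of a gene together, so genes with many annotated exons rank lower. This applies to RGS12 (13762 bases) and RGS3 (13152 bases). Without division by length, RGS12 (26.8 CPM) lay above RGS19 (22.3 CPM). Per kilobase of exons, in the 4 control libraries at 6 h, RGS10 was highest at 25.7 ± 3.63 CPM per kb (SD, n = 4), followed by RGS16 at 16.04 ± 2.67 and RGS19 at 11.005 ± 1.67. A second tier held RGS2 (2.88 ± 0.411), RGS12 (1.95 ± 0.0443), RGS14 (1.73 ± 0.441) and RGS20 (1.35 ± 0.198), in which RGS12 and RGS20 each differed from RGS14 by less than the SD of RGS14. RGS3 (0.290 ± 0.102) and RGS5 (0.222 ± 0.0292) did not differ beyond their spread, and RGS4 stood at 0.0402 ± 0.0152. The RGS4 values rested on 1 to 18 counts per library in all 38 libraries. On the GRCh38 RefSeq map, RGS4 (chr1:163068871-163076802) and RGS5 (chr1:163142299-163321735) are neighbours, and RGS16 (chr1:182598623-182604389) and RGS2 (chr1:192809039-192812275) lie on the same chromosome. RGS10 is at chr10:119499817-119542719 and RGS20 at chr8:53851795-53959303. RGS5 overlaps RGS5-AS1 and NUF2, and RGS2, RGS3, RGS12 and RGS20 overlap other annotated transcripts, so their counts are less certain, since the strand setting of the counting is not stated.

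**Figure D1:**
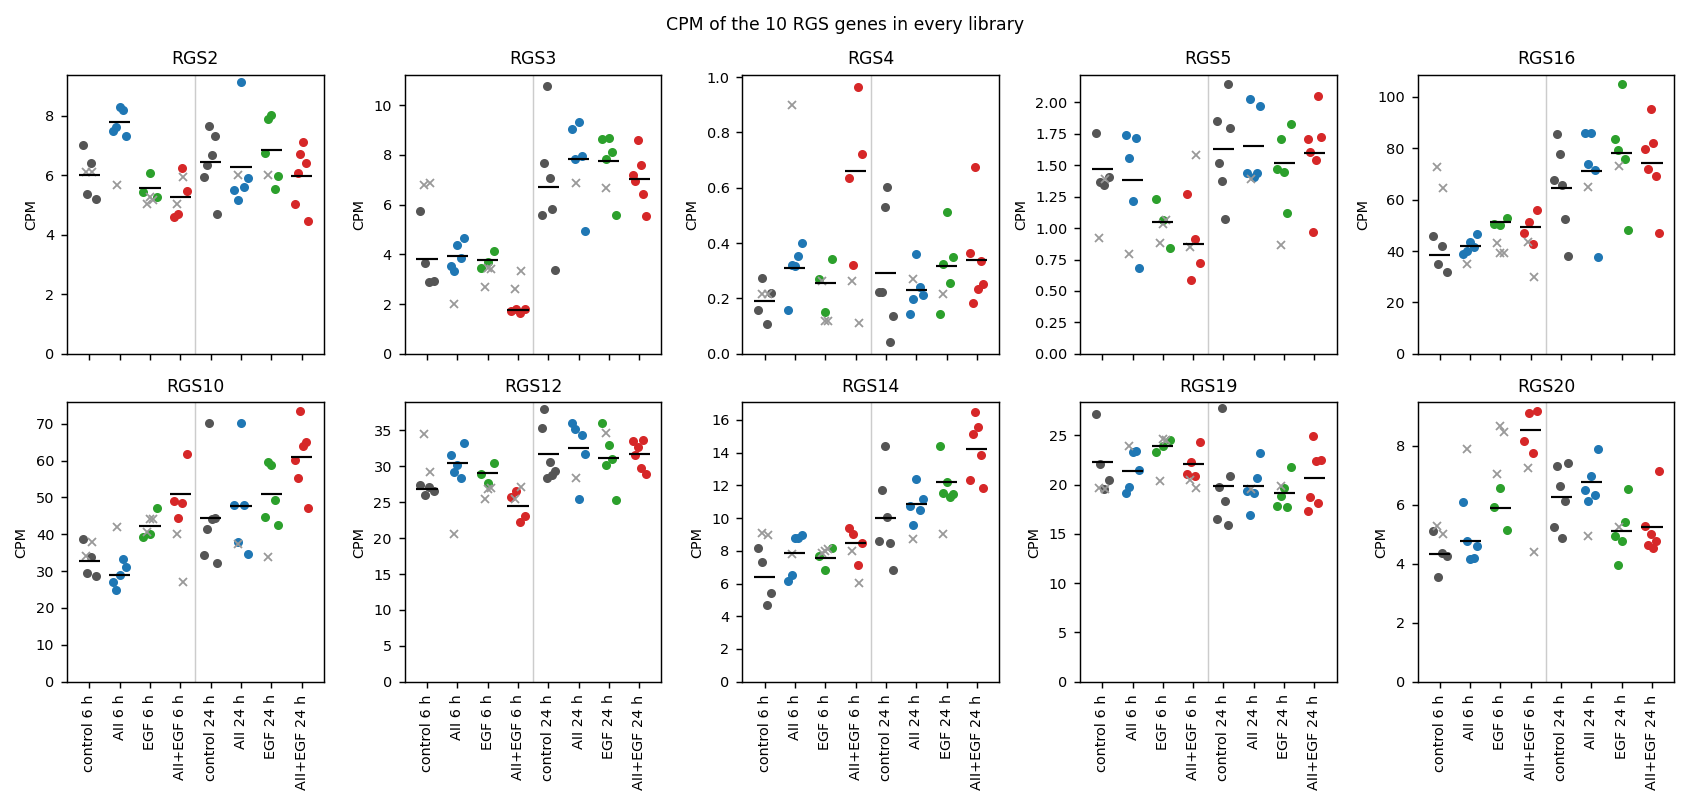
CPM of each RGS gene (y axis, linear from 0) in every library of the 8 groups (x axis). Dots are the 38 libraries used, lines their group means and grey crosses the 10 libraries left out. RGS20 in the 4 AII+EGF libraries at 6 h lay above the other 6 h dots, and RGS3 in the same 4 libraries lay below them.

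AII or EGF alone at 6 h moved none of the 10 genes past the threshold. A gene was called where its adjusted p was below 0.01, it differed 1.5-fold or more, and the group with more RNA averaged over 5 CPM. With AII, edgeR's quasi-likelihood test (p-values adjusted by Benjamini-Hochberg) called 0 of 10, against 0.469% of all genes tested. DESeq2 also called 0, and 1 member, RGS2, had an unadjusted p under 0.05. Here and below, counts at that unadjusted cut stand without the share of all genes, so they do not single out the RGS genes. RGS2 stood at 7.02, 5.38, 6.40 and 5.21 CPM in the control libraries and at 7.47, 7.63, 8.30, 8.18 and 7.32 CPM with AII, so the groups did not overlap. The difference was 0.38 ± 0.16 on the log2 scale (SE) with an adjusted p of 0.305. RGS2 and RGS12 were the 2 members whose AII and control libraries did not overlap, as was the case for 7.52% of all genes. The summed level of 8 marker genes of other cell types was also higher with AII (29.7 to 38.4 CPM) than in control cells at 6 h (24.6 to 27.1 CPM). COL1A1 (11.1 to 44.7 CPM) and COL3A1 (7.57 to 28.7 CPM over the libraries used) made up most of this sum. Each of its other genes stayed at or below 2.16 CPM. The part of this sum in the RGS2 values was not tested.

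With EGF at 6 h, 0 of 10 members were called, against 1.94% of all genes, again with 0 by DESeq2 and 1 at an unadjusted p under 0.05. This member was RGS20, a Gz-directed protein of the RZ family, with 5.92, 6.57 and 5.15 CPM after EGF and 5.11, 3.56, 4.36 and 4.25 CPM in control cells. The lowest EGF library lay just above the highest control library. The difference was 0.45 ± 0.17 (log2, adjusted p = 0.132). With the near-identical libraries kept it was 0.61 (adjusted p = 0.00127) and called, and with the EGF 6 h pair of near-identical libraries summed to 1 it was 0.62 (adjusted p = 0.0156). RGS10 (0.37 ± 0.20) and RGS16 (0.41 ± 0.23) lay above control without passing the test. For 5 members the EGF and control libraries did not overlap, against 22.1% of all genes.

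Joint stimulation for 6 h was the comparison in which the 10 genes differed most from control, with members on both sides. RGS20 and RGS10 rose and were called, 2 of 10 against 12% of all genes tested, and 2 higher against 6.45%. RGS4 rose and RGS3 fell past the adjusted p and the fold minimum but with a mean under 5 CPM, which makes 4 of 10 without that minimum, against 16.5% of all genes. DESeq2 called 2 members too, and 4 without the abundance minimum. The median log2 change was 0.17 over the 10 members and -0.03 over all genes.

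RGS20 had the clearest difference. With AII+EGF it stood at 8.15, 9.10, 7.76 and 9.19 CPM, and with AII alone at 6.10, 4.78, 4.18, 4.19 and 4.60 CPM. All 4 AII+EGF libraries were above every control, AII and EGF library used at 6 h. The mean of 8.55 ± 0.708 CPM (SD, n = 4) compared with 4.32 ± 0.635 in control cells (n = 4), a rise of 0.99 ± 0.16 on the log2 scale, or 1.98-fold (adjusted p = 7.17e-06). The call held in each of the 38 fits that left out 1 library (0.90 to 1.08), in all 48 libraries (0.72, adjusted p = 5.95e-04) and with the libraries of doubtful label kept (0.84, adjusted p = 0.00143). In title runs 4 and 5, the runs of consecutive library titles that hold both groups, the log2 ratio of AII+EGF to control was 0.84 and 1.08.

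RGS10, a small protein of the R12 family and the member with the highest level per length, stood at 49.0, 44.5, 48.6 and 61.7 CPM with AII+EGF and at 38.8, 29.5, 33.7 and 28.8 CPM in control cells. The groups did not overlap, with the highest control library at 38.8 and the lowest AII+EGF library at 44.5 CPM. It rose by 0.64 ± 0.19 (log2, adjusted p = 0.00685). The call held in 32 of the 38 fits that left out 1 library and was lost in 6 of them (any of AII+EGF 6 h replicates 1, 3 and 5 or control 6 h replicates 4, 5 and 6, at 0.54 to 0.66, with adjusted p up to 0.0376). It was lost too in all 48 libraries (0.40, adjusted p = 0.055) and with the libraries of doubtful label kept (0.50, adjusted p = 0.0668). It was also lost with the near-identical libraries kept (0.53) and with scaling by library totals (0.54), both under 1.5-fold, and without title run 1 (0.74, adjusted p = 0.0148). In title runs 4 and 5 the log2 ratio of AII+EGF to control was 0.51 and 0.87.

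RGS3, an R4 member that acts on Gq and Gi alpha, stood at 1.71, 1.82, 1.66 and 1.81 CPM with AII+EGF. Its values were 5.75, 3.65, 2.90 and 2.94 CPM in control cells, 3.53, 3.33, 4.39, 3.84 and 4.64 CPM with AII and 3.46, 3.68 and 4.12 CPM with EGF. All 4 AII+EGF libraries lay below every other 6 h library used and varied little among themselves (1.75 ± 0.0783, SD, n = 4), while the control libraries spread widely. It fell by 1.12 ± 0.26 on the log2 scale against control (adjusted p = 7.79e-04). In all 48 libraries the change was -1.16 (adjusted p = 8.92e-05). That set holds control 6 h replicates 1 and 2, the libraries near-identical to 24 h libraries. They stood at 6.80 and 6.88 CPM, above the other controls. With the libraries of doubtful label kept the change was -0.86 (adjusted p = 0.0141), and without control 6 h replicate 3 it was -0.85 (adjusted p = 0.0113).

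RGS4, an R4 member that acts on Gq and Gi alpha, had 13, 6, 18 and 14 counts with AII+EGF and 3, 6, 2 and 5 counts in control cells. The lowest AII+EGF library and the highest control library had the same count and differed only in their scaling. It rose by 1.74 ± 0.49 (log2, adjusted p = 0.00525). The test was no longer passed in 5 of 38 fits that left out 1 library (adjusted p up to 0.0282) and in all 48 libraries (1.23, adjusted p = 0.0246), and with the libraries of doubtful label kept (1.45, adjusted p = 0.0489).

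The other 6 members did not pass the test with AII+EGF at 6 h. RGS5, whose levels were at or below 1.76 CPM at 6 h, was at -0.74 ± 0.27 (adjusted p = 0.0326), RGS14 at 0.41 ± 0.18 (adjusted p = 0.0777) and RGS16 at 0.35 ± 0.22 (adjusted p = 0.225). RGS2 was at -0.19 ± 0.17, RGS12 at -0.13 ± 0.11 and RGS19 at -0.01 ± 0.13. The value of RGS16 turned to -0.13 in all 48 libraries. In that set control 6 h replicates 1 and 2, the libraries near-identical to 24 h libraries, held 72.7 and 64.7 CPM of RGS16, above the 31.8 to 45.8 CPM of the other controls. For 5 members (RGS3, RGS4, RGS5, RGS10 and RGS20) the AII+EGF and control libraries did not overlap, against 33.4% of all genes.

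**Figure D2:**
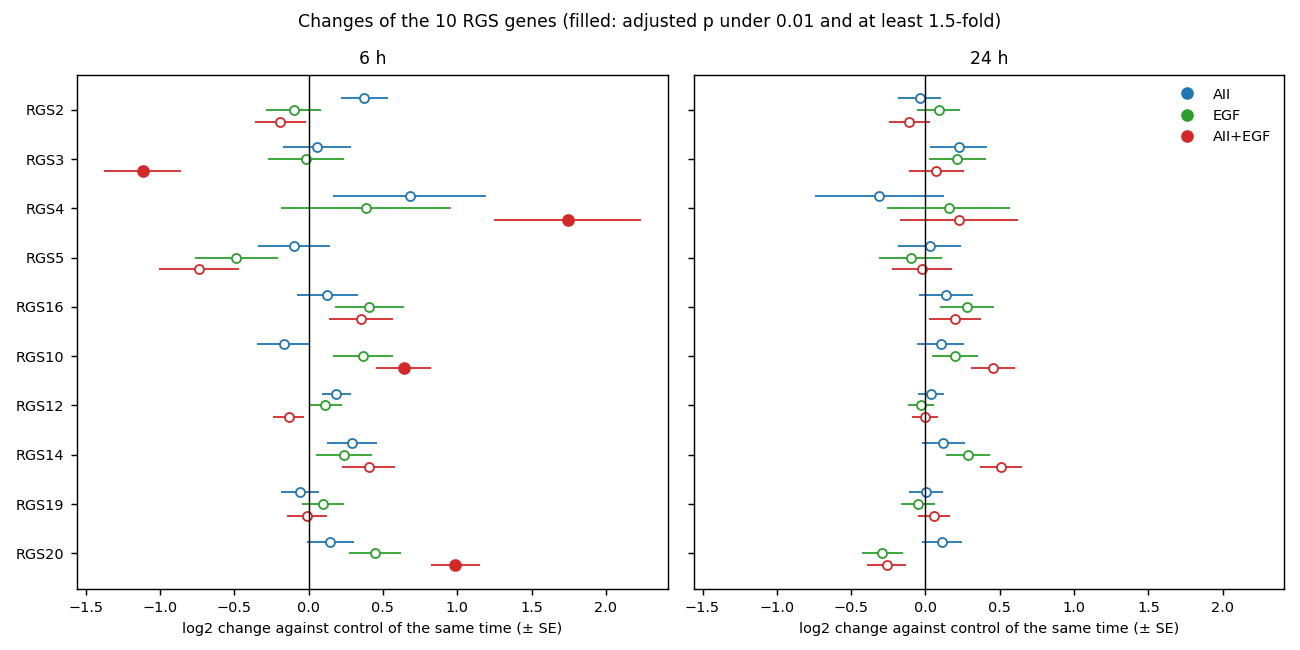
Log2 change of each RGS gene (x axis, with SE) against control of the same time at 6 h (left) and 24 h (right) for AII, EGF and AII+EGF. Filled circles passed an adjusted p of 0.01 and 1.5-fold whatever their level; there are 4, all for AII+EGF at 6 h: RGS20 at 0.99, RGS10 at 0.64, RGS4 at 1.74 and RGS3 at -1.12.

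Adding EGF to AII, or AII to EGF, was compared at 6 h on the same AII+EGF libraries, so these values are not independent of those above. Against AII alone, RGS20 (0.84 ± 0.15, adjusted p = 4.47e-05) and RGS10 (0.81 ± 0.18, adjusted p = 5.34e-04) were higher and called, 2 of 10 against 7.60% of all genes. RGS3 was lower (-1.17 ± 0.25, adjusted p = 3.81e-04) with a mean under 5 CPM, which makes 3 of 10 without the abundance minimum, against 10.7%. All 3 lost the threshold with all 48 libraries, at 0.52 (adjusted p = 0.0365) for RGS20, 0.52 (adjusted p = 0.0399) for RGS10 and -0.73 (adjusted p = 0.036) for RGS3. In that set the library labelled AII 6 h replicate 6 held 7.88 CPM of RGS20, 42.1 CPM of RGS10 and 2.01 CPM of RGS3, and the library labelled AII+EGF 6 h replicate 6 held 4.39, 26.96 and 3.34 CPM.

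RGS2 differed in the other direction from RGS20. It stood at 4.59, 4.71, 6.26 and 5.47 CPM with AII+EGF, and each of these lay below the 7.32 to 8.30 CPM of the AII libraries. The marker sum of other cell types was lower in the same way (20.3 to 27.4 CPM with AII+EGF, 29.7 to 38.4 with AII), and its part was not tested. The log2 difference of -0.56 ± 0.16 (adjusted p = 0.00806) was just short of 1.5-fold and was not called. It was called at -0.68 when libraries were scaled by their totals alone, and with the libraries of doubtful label kept the adjusted p was 0.0522. RGS12 was at -0.32 ± 0.10 against AII (adjusted p = 0.014). For 5 members the AII+EGF and AII libraries did not overlap, against 27.9% of all genes.

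Against EGF alone, edgeR's quasi-likelihood test called 0 of 10 (2.92% of all genes), DESeq2 called 0 and 4 members had an unadjusted p under 0.05. RGS3 was the 1 member past the adjusted p and fold minimum (3.77% of all genes), at -1.10 ± 0.27 (adjusted p = 0.00568). This was lost in 7 of 38 fits that left out 1 library (adjusted p up to 0.0353) and in all 48 libraries (-0.67, adjusted p = 0.0799). RGS20 was 0.54 ± 0.17 higher with AII+EGF than with EGF (adjusted p = 0.0365), with 7.76 to 9.19 CPM above the 5.15 to 6.57 CPM of EGF. In all 48 libraries this difference was 0.12 (adjusted p = 0.712). There the 3 EGF libraries left out stood at 7.04, 8.69 and 8.47 CPM. RGS10 was 0.27 ± 0.20 higher (adjusted p = 0.441). For 3 members the libraries did not overlap, against 30.4% of all genes.

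Whether AII+EGF differed from the product of the separate effects was tested as an interaction on the log2 scale. At 6 h edgeR's quasi-likelihood test called 0 of 10 members (0.229% of all genes), DESeq2 called 0 and 2 had an unadjusted p under 0.05, RGS3 (-1.16 ± 0.36, adjusted p = 0.141) and RGS12 (-0.44 ± 0.15, adjusted p = 0.217). RGS20 was at 0.39 ± 0.23 (adjusted p = 0.622) and RGS10 at 0.44 ± 0.27 (adjusted p = 0.639). On the linear scale AII+EGF exceeded the sum of the separate differences from control by 2.22 ± 0.719 CPM (SE) for RGS20 and by 12.5 ± 5.26 CPM for RGS10, and lay below it by 2.14 CPM for RGS3 (-2.14 ± 0.741). It also lay below the sum for RGS12 (-8.30 ± 1.60 CPM) and RGS2 (-2.10 ± 0.658 CPM). No test was run on these sums. In all 48 libraries they were -0.0656 CPM for RGS20, 4.97 for RGS10, -0.104 for RGS3, -3.06 for RGS12 and -1.43 for RGS2, so the libraries left out move all 5. At 24 h the interaction was called for 0 members (0% of all genes), by DESeq2 also for 0, with 0 at an unadjusted p under 0.05.

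After 24 h the 10 genes differed little between treatments. AII called 0 members (0% of all genes), with 0 at an unadjusted p under 0.05, EGF 0 (0.245% of all genes), with 1 at an unadjusted p under 0.05, and AII+EGF 0 (2.90% of all genes), with 2. DESeq2 called 0 in each, and no member's libraries were without overlap, against 0.127%, 1.53% and 4.73% of all genes. The nearest was RGS14, an R12 member that also binds Gi alpha through a GoLoco motif, with a lowest, median and highest value of 11.8, 14.5 and 16.5 CPM with AII+EGF (n = 6) and 6.84, 9.31 and 14.4 CPM in control cells (n = 6). The AII+EGF libraries lay mostly above the controls, with overlap through 1 high control. The change was 0.51 ± 0.14 (adjusted p = 0.00841), under 1.5-fold. Without that control, replicate 3, it was called at 0.64. RGS10 was at 0.45 ± 0.15 (adjusted p = 0.0288), also called without control 24 h replicate 3, at 0.63. Against EGF alone and AII alone at 24 h, AII+EGF called 0 members each (0.0917% and 1.45% of all genes), DESeq2 0, with 0 and 3 at an unadjusted p under 0.05.

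The response to joint stimulation differed between 6 h and 24 h for RGS20 and RGS3, 2 of 10 members against 11.6% of all genes, in opposite directions. RGS20 had a lowest, median and highest value of 4.52, 4.90 and 7.15 CPM with AII+EGF at 24 h (n = 6) and 4.88, 6.38 and 7.43 CPM in control cells (n = 6). These overlapped, and the log2 change was -0.26 ± 0.13 (adjusted p = 0.164). The change at 24 h minus that at 6 h was -1.25 ± 0.21 (adjusted p = 1.80e-05), and it passed with all 48 libraries (-0.97, adjusted p = 0.00155) and in each fit that left out 1 library (-1.36 to -1.16).

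For RGS3 the AII+EGF values at 24 h were 5.53, 7.07 and 8.60 CPM (lowest, median and highest, n = 6) and the control values 3.35, 6.44 and 10.8 CPM (n = 6), a log2 change of 0.07 ± 0.18. The difference from 6 h was 1.19 ± 0.32 (adjusted p = 0.00455). It was lost with the libraries of doubtful label kept (0.93, adjusted p = 0.0494) and without any of AII+EGF 6 h replicates 1 and 3 or control 6 h replicate 3 (adjusted p up to 0.0285). For RGS10 the difference between the times was -0.18 ± 0.24 (adjusted p = 0.628), and RGS4 was at -1.52 (SE up to 0.637, not called).

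**Figure D3:**
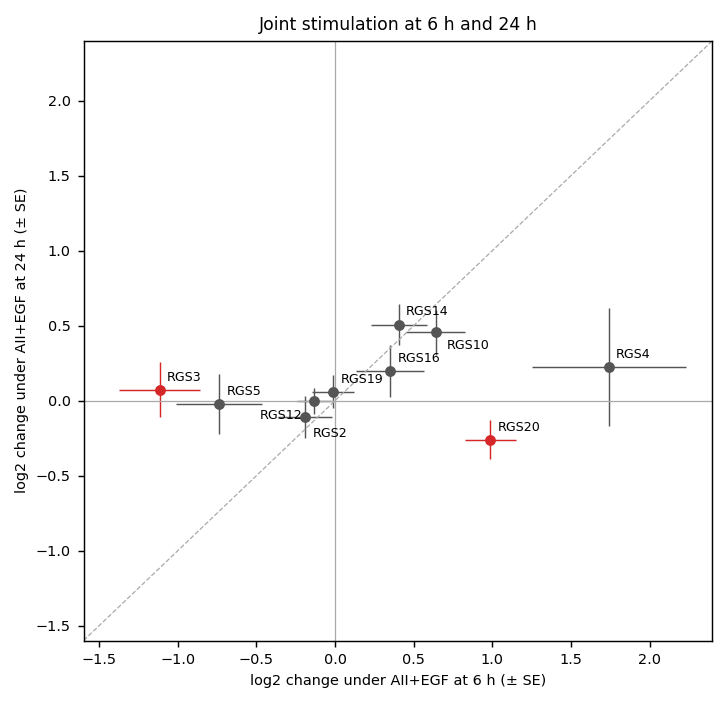
Log2 change under AII+EGF against control at 6 h (x axis) and at 24 h (y axis), with SE, for the 10 RGS genes. The dashed line marks equal changes, and red marks the 2 genes whose change differed between the times: RGS20 (0.99 and -0.26) and RGS3 (-1.12 and 0.07).

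The controls themselves differed with time in culture without serum. At 24 h against 6 h, RGS3, RGS14 and RGS16 were higher and called, 3 of 10 against 6.73% of all genes (4.77% higher), and the median of the 10 was 0.49 against 0.03 over all genes. RGS16, an R4 member that acts on Gi and Gq alpha, stood at 45.8, 34.8, 42.1 and 31.8 CPM at 6 h and at 37.9, 66.7 and 85.5 CPM (lowest, median, highest, n = 6) at 24 h. All but the lowest 24 h library were above the 6 h libraries. The rise was 0.74 ± 0.20 (log2, adjusted p = 0.00423). RGS3 rose by 0.82 ± 0.22 (adjusted p = 0.00381) and RGS14 by 0.64 ± 0.16 (adjusted p = 0.00261), with overlapping libraries for each.

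RGS20 was 0.54 ± 0.15 higher (adjusted p = 0.00518), under 1.5-fold, and RGS10 0.44 ± 0.17 (adjusted p = 0.0437). With all 48 libraries none of the 3 calls remained: RGS16 was at 0.42 (adjusted p = 0.11), RGS3 at 0.48 (adjusted p = 0.112) and RGS14 at 0.47 (adjusted p = 0.0246). In that set the left-out control 6 h replicates 1 and 2, the libraries near-identical to 24 h libraries, held 6.80 and 6.88 CPM of RGS3. Without control 24 h replicate 3 or control 6 h replicate 6 each of the 3 genes lost its call, and other controls ended the call of 1 or more of them. Each title run held libraries of 1 time, so time and title run cannot be told apart. The marker sum of other cell types also lay higher at 24 h in controls (26.6 to 63.7 CPM) than at 6 h (24.6 to 27.1 CPM), and its part was not tested. The cells came from 1 clone, and that sum was mostly COL1A1 and COL3A1. A bulk sample does not show whether a change was shared by all cells.

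Group means are given here for 5 members with no call for any treatment: RGS19, RGS12, RGS2, RGS5 and RGS16. RGS19, which acts mainly on Gi alpha, had group means from 19.1 ± 1.66 CPM (EGF 24 h, SD, n = 5) to 23.9 ± 0.588 CPM (EGF 6 h, n = 3). RGS12, a large protein with further domains that bind partners other than G alpha, ranged from 24.4 ± 2.097 CPM with AII+EGF at 6 h (n = 4) to 32.6 ± 4.26 CPM with AII at 24 h (n = 5). At 6 h it stood at 26.8 ± 0.610 CPM in control cells (n = 4), 30.5 ± 1.91 with AII (n = 5) and 29.02 ± 1.39 with EGF (n = 3). In the libraries used both single stimuli thus lay above control and the joint one below, though no change against control passed the test. In all 48 libraries the means were 28.4 (control), 28.7 (AII), 27.6 (EGF) and 24.8 CPM (AII+EGF), so EGF no longer lay above control.

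RGS2 had its highest group mean with AII at 6 h (7.78 ± 0.437 CPM, n = 5) and its lowest with AII+EGF at 6 h (5.26 ± 0.774, n = 4). At 24 h its group means lay between 5.97 ± 1.03 (AII+EGF, n = 6) and 6.83 ± 1.11 CPM (EGF, n = 5), within the spread of the libraries. RGS5 lay at 1.47 ± 0.194 CPM in control cells, 1.38 ± 0.444 with AII, 1.04 ± 0.196 with EGF and 0.873 ± 0.295 with AII+EGF at 6 h (n = 4, 5, 3 and 4). Its 24 h group means were 1.52 to 1.65 CPM. RGS16 had group means of 38.6 to 51.3 CPM at 6 h and 64.6 to 78.3 CPM at 24 h, where single libraries spread from 37.9 to 105 CPM. In title run 8, which holds 24 h libraries of all 4 treatments, RGS16 was at 37.9 (control), 37.9 (AII), 48.03 (EGF) and 46.9 CPM (AII+EGF), the lowest library of each group.

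The G proteins and effectors on which RGS proteins act were measured in the same libraries. In the Gq arm, 9 of 11 listed genes were tested with AII+EGF at 6 h, of which 1 rose and 3 fell, 4 of 9 against 12% of all genes tested, with a list median of -0.21 against -0.03 over all genes. GNAQ, the Gq alpha subunit, rose from 82.0 ± 5.70 to 123 ± 10.9 CPM (SD, n = 4 each; 0.59 ± 0.10 log2 with SE, adjusted p = 1.47e-05). PLCB2 (-1.03 ± 0.18) and PLCB3 (-0.62 ± 0.08), phospholipase C beta isoforms, and ITPR1 (-0.71 ± 0.15), a receptor for inositol trisphosphate on calcium stores, fell. PLCB2 lay just over the 5 CPM minimum, at 5.06 ± 0.990 CPM in control cells, and at 2.46 ± 0.475 CPM with AII+EGF. GNAQ (0.53) and PLCB3 (-0.55) stayed at an adjusted p below 0.01 but under 1.5-fold in all 48 libraries, while PLCB2 (-0.94) and ITPR1 (-0.69) were called there too. Of the 38 fits that left out 1 library, GNAQ lost its call in 9, PLCB2 in 3, PLCB3 in 2 and ITPR1 in 0. GNAQ also fell short of 1.5-fold with title run as a block (0.56) and with the libraries of doubtful label kept (0.53), and PLCB3 with the latter (-0.58) and with the near-identical libraries kept (-0.55). The change at 24 h minus that at 6 h was called for the same 4 genes, 4 of 9 against 11.6% of all genes. It was -0.75 ± 0.13 for GNAQ, 1.04 ± 0.23 for PLCB2, 0.64 ± 0.11 for PLCB3 and 0.94 ± 0.19 for ITPR1. This difference uses the same 6 h libraries, so it is not independent of the 6 h changes. With AII+EGF against control at 24 h, 0 genes of the Gq arm were called.

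For the other lists too the counts stand beside 12% of all genes called in this comparison. Among 9 other G alpha genes, all tested, 2 were called. GNAL, the olfactory relative of Gs alpha, rose (1.03 ± 0.13) and GNAI2, a Gi alpha subunit, fell (-0.78 ± 0.12). GNAL also rose with EGF alone (0.93 ± 0.14). Of 7 receptor kinases and arrestins, GRK3, a kinase that phosphorylates activated receptors, rose (0.61 ± 0.12) and 6 were not called. In all 48 libraries GRK3 was at 0.45, under 1.5-fold, and it was lost in 1 of the 38 fits that left out 1 library. Its call was also lost, under 1.5-fold, with title run as a block (0.52), with the libraries of doubtful label kept (0.53) and with the near-identical libraries kept (0.52). Of 12 partners and other regulators of G alpha, ARHGEF1, a protein with an RGS-like domain for G12/13 alpha, fell (-1.12 ± 0.10, adjusted p = 3.30e-11), from 42.5 ± 4.96 to 19.5 ± 1.80 CPM, and 11 were not called. GNAL (0.69), GNAI2 (-0.61) and ARHGEF1 (-0.92) were called in all 48 libraries as well. ARHGEF1 was also lower with AII+EGF than with EGF alone (-0.61 ± 0.11) and than with AII alone (-0.86 ± 0.10), and its response at 24 h minus that at 6 h was 1.40 ± 0.13. In control cells at 24 h against 6 h, RGS9 was higher (0.90 ± 0.15), as were ARRB1, an arrestin (0.70 ± 0.14), and RGS7BP, a membrane anchor of R7 family RGS proteins (0.67 ± 0.20). Of the other 11 RGS genes 5 were tested with AII+EGF at 6 h, with 0 called by edgeR's quasi-likelihood test or DESeq2 and 1 at an unadjusted p under 0.05.

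AGTR1, the transfected receptor, moved with the groups. It stood at 4271 ± 239 CPM in control cells, 5971 ± 208 with AII, 5195 ± 229 with EGF and 10041 ± 436 with AII+EGF at 6 h (SD, n = 4, 5, 3 and 4). By edgeR's test it was not called at 6 h with AII alone (0.48 ± 0.16, adjusted p = 0.142) or EGF alone (0.28 ± 0.19, adjusted p = 0.461). It rose by 1.23 ± 0.17 on the log2 scale with AII+EGF (adjusted p = 4.93e-07) and, unlike RGS20, was also higher with AII+EGF at 24 h (0.83 ± 0.14, adjusted p = 5.28e-05). Its part in the RGS values was not tested.

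**Figure D4:**
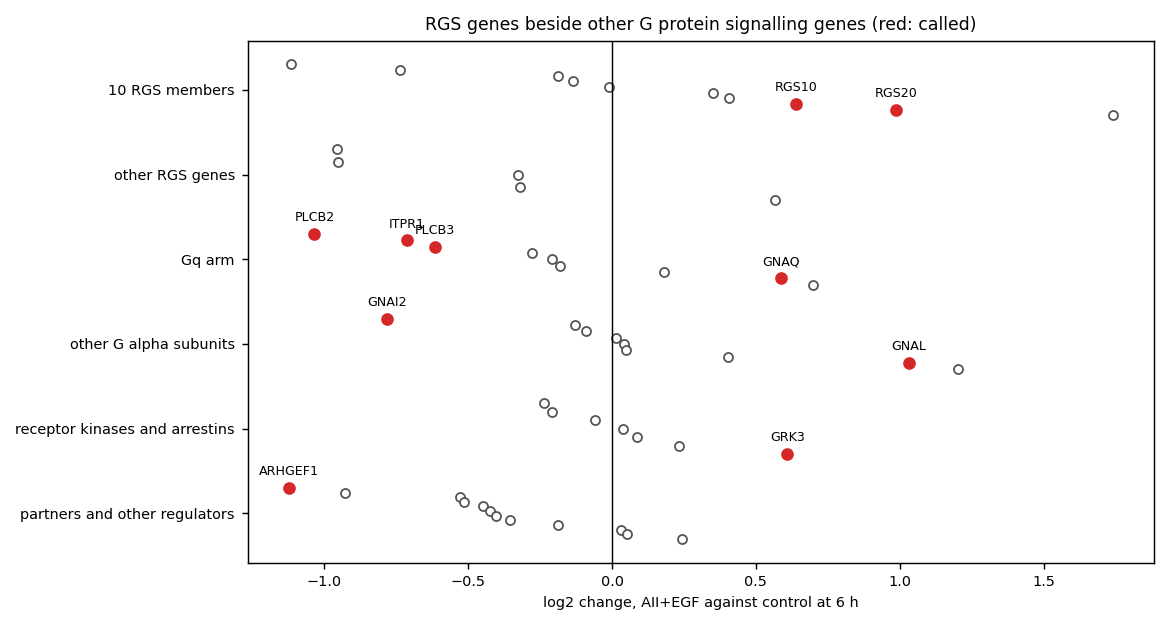
Log2 change at 6 h with AII+EGF against control (x axis) for the tested genes of each list (rows), 1 circle per gene. Red circles are called genes, named above each: 2 RGS genes rose, and in the Gq arm GNAQ rose while PLCB2, PLCB3 and ITPR1 fell.

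Over the 8 group means of log2 CPM, the genes most like RGS20 were WNT5B (Pearson r = 0.982), TMEM229A (0.975, at no more than 1.41 CPM) and INF2 (0.968). Those most like RGS10 were BAALC (0.984, at no more than 3.99 CPM), AFAP1L1 (0.971) and CR2 (0.970, at no more than 2.43 CPM). These are descriptions over 8 points that share libraries, picked from 19626 genes.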

How the data were processed

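RNA was measured in 48 libraries from 1 AT1R-expressing clone of HEK293 cells. The authors enriched poly(A) RNA, mapped reads to hg38 with HISAT2 2.1.0, assigned fragments to genes with featureCounts and deposited raw counts. Strandedness and the handling of multimapping reads are not given in the sources used here.

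Groups followed the labels, which do not say that replicates were separate cultures, so p-values measure the spread between these samples, which may be technical. The 10 members, the 5 lists of related genes, the markers and the libraries left out were chosen with earlier results of these data known. Named were the 10 members, at most 3 called genes per list and comparison, AGTR1, and the 3 genes with the highest r for RGS20 and RGS10. The Gq arm was an exception. There every called gene was named for AII+EGF against control at 6 h and for the change over time.

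The 38 libraries (17.8 to 29.96 M counts) were fitted together with edgeR 4.0.16 in R 4.3.3: filterByExpr by group (19626 genes kept), TMM factors, a quasi-likelihood test without covariates and Benjamini-Hochberg adjustment over all genes tested. Calls needed an adjusted p below 0.01, a 1.5-fold difference or more, and over 5 CPM on average in whichever group was higher. CPM were computed on TMM-scaled library sizes, and log2 CPM with 0.5 added. CPM of left-out libraries came from the scaling of all 48. The procedure was tested on simulated counts. Treatment comparisons at 1 time share their control libraries. Alternatives were other library sets, DESeq2 1.42.0, RLE factors, library totals, other filters and thresholds, title run as a block, and each library left out. Leaving out title run 1 was added after seeing the data. The 8 title runs were read from runs of consecutive library titles and are not stated to be batches. Positions and promoters came from RefSeq (GRCh38.p14), and exon lengths from GENCODE.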

Additional observations from a re-analysis of the deposited data

Results flagged for a closer look

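In 6 of 70 groups of 4 to 6 libraries, 1 library stood apart from the others by Dixon's test. Chance gives about 1 in 20 groups. RGS2 was at 9.15 CPM in AII 24 h replicate 3, where the next library had 5.91. RGS3 was at 5.57 CPM in EGF 24 h replicate 6, below the next at 7.85. RGS4 was at 0.676 CPM in AII+EGF 24 h replicate 3, with the next at 0.363. RGS5 was at 1.76 CPM in control 6 h replicate 3, with the next at 1.40. RGS10 was at 70.1 CPM in control 24 h replicate 3, with the next at 44.3. RGS20 was at 7.15 CPM in AII+EGF 24 h replicate 6, with the next at 5.29.

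For 2 genes the response to AII+EGF differed between 24 h and 6 h by edgeR's test of the difference itself, with a log2 difference of -1.25 for RGS20 and 1.19 for RGS3.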

How the results depend on the processing

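The RGS20 rise with AII+EGF at 6 h kept its direction and its call under every alternative run, and the count of calls was otherwise set mostly by the libraries left out. With all 48 libraries, members called numbered 1 with EGF at 6 h, 1 with AII+EGF at 6 h, 0 for AII+EGF against AII at 6 h and 0 for control 24 h against 6 h. With the 2 libraries of doubtful label kept they numbered 1 for AII+EGF at 6 h, 0 for AII+EGF against AII and 1 for the 24 h minus 6 h response. With only the near-identical libraries kept they numbered 1 with EGF at 6 h, 1 with AII+EGF at 6 h and 0 for control 24 h against 6 h. Scaling by library totals left 1 with AII+EGF at 6 h. Leaving out title run 1, added after seeing the data, left 1 with AII+EGF at 6 h, 1 against AII and 1 for the response over time. Fitting only the groups compared left 0 for control 24 h against 6 h and 1 for the response over time. Without the abundance minimum there were 4 with AII+EGF at 6 h and 1 against EGF, and without the fold minimum 1 with AII+EGF at 24 h. With 1 library left out, calls ranged from 1 to 2 with AII+EGF at 6 h, from 0 to 2 with AII+EGF at 24 h, from 0 to 4 for control 24 h against 6 h and from 1 to 2 for the response over time. The shares of all genes called under these alternatives are not set beside these counts. Whether a change in count was particular to the RGS genes therefore cannot be read from them.

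The linear excess of RGS20 at 6 h was -0.0656 CPM with all 48 libraries, 0.869 with those of doubtful label kept, 1.11 with the near-identical ones kept and 1.49 with the EGF 6 h pair summed. That of RGS10 was 4.97 with all 48 and 5.53 with those of doubtful label kept, and that of RGS3 was -0.104 with all 48 and -0.688 with the near-identical ones kept.

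Changes of sign occurred in log2 changes that had not passed the test. RGS16 turned to -0.094 (EGF) and -0.13 (AII+EGF) at 6 h with all 48 libraries, and to -0.078 and -0.015 with the near-identical ones kept. RGS19 with AII+EGF at 6 h moved to 0.032 with the near-identical ones kept, 0.00099 with RLE factors, 0.0012 with DESeq2, 0.035 with title run as a block and 0.0048 without title run 1, and ranged from -0.070 to 0.095 with 1 library left out. RGS20 with AII at 6 h was -0.0046 without title run 1, its interaction at 6 h was -0.078 with all 48, and the RGS10 response over time was 0.059 with all 48. With 1 library left out, RGS3 ranged from -0.14 to 0.25 with EGF at 6 h and from -0.049 to 0.26 with AII+EGF at 24 h. The cause was not tested.

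No paired analysis was possible because the labels carry no replicate numbers, and those used here only follow the order of titles within a group. The title run block could not be fitted for control 24 h against 6 h. At 1 to 18 counts per library, RGS4 values are limited by counting, and groups of 3 to 6 libraries limit all others.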
